A study of Mus musculus with 7 samples.

Results

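The 10 genes described here encode the adrenal receptor for adrenocorticotropic hormone (ACTH), its accessory proteins and the cAMP machinery behind it: Mc2r, Mrap, Mrap2, Prkar1a, Prkar2b, Prkaca, Pde8a, Pde8b, Pde2a and Creb1. They were chosen by symbol, with no measured value in the rule, and all 10 were found among the 35976 gene symbols of the deposited table. RNA sequencing was done on 7 libraries of whole mouse adrenal glands, and each library was 1 pool. The pools held 40 glands of late embryos (E18.5, the embryonic day) with sex not determined, 16 glands of males and 22 of females at postnatal day 1 (P1), 6 glands of each sex at 2 weeks, and 4 glands of each sex at 12 weeks. All animals were of the strain C57BL/6J, an inbred laboratory mouse, and the labels name no mutation or treatment. With 1 pool for each age and sex, p-values here measure the spread between these libraries, which includes any difference between pools.

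ACTH from the pituitary binds the receptor encoded by Mc2r on cells of the adrenal cortex, and the small membrane protein encoded by Mrap carries that receptor to the cell surface. The occupied receptor activates adenylyl cyclase, and the cAMP made there binds the regulatory subunits of protein kinase A and releases the catalytic subunits. These phosphorylate proteins of steroid synthesis and transcription factors such as CREB, while phosphodiesterases break cAMP down and so limit the signal. In people, mutations of PRKAR1A and variants of PDE8B are known from adrenal hyperplasia with cortisol excess.

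Whole glands hold cortex, medulla and attached tissue, so a lower level in bulk RNA can come from fewer cells of a type or from less RNA per cell, and these cannot be told apart. The libraries held between 15184210 and 23551289 reads in genes. All 6 adrenal cortex markers and all 8 chromaffin cell markers had reads in every library. The summed cortex markers, in normalized counts, were 532277 at E18.5, 372205 and 243499 in the male and female P1 pools, 503140 and 508000 at 2 weeks, and 834315 and 1110214 at 12 weeks. The 6 liver markers summed to 295077 at E18.5 and to 368899 and 282418 in the male and female P1 pools. At 2 weeks their sums were 14030 and 36350, and at 12 weeks 464 and 420. The part of liver RNA in the differences of the 10 genes was not tested. The P1 female library stood apart: 4 Y-linked transcripts reached a median of 21.0% of their level in the P1 male library, against 0.0609% at 2 weeks and 0.0132% at 12 weeks. It also had the lowest cortex sum and the highest sum of 6 skeletal muscle markers, at 139272 against 76444 in the P1 male library and 4846 or less from 2 weeks on. The P1 male library differed in other ways: 6 exocrine pancreas markers summed to 3323 normalized counts there against 68.4 or less in the others, and 6 kidney markers to 2504 against 535 or less. Differences from P1 stated for the 10 genes are therefore also given without the P1 female library, and some of them without the P1 male library, which leaves 1 residual degree of freedom.

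Per length of merged exons, Mrap and Mc2r were the most abundant transcripts of the group, and Mrap2 was the rarest. The mean over the 7 libraries was 4140 normalized counts per kb for Mrap and 3412 for Mc2r, and the ranges of the pair overlapped. Prkar2b followed at 1566 normalized counts per kb and Prkar1a at 1536, again with overlapping ranges, and Prkaca stood at 912. Among the phosphodiesterases, Pde2a had 638 normalized counts per kb, Pde8b 406 and Pde8a 201. The place of Pde2a in this order is uncertain, because Gm45837 shares 64.3% of its exon bases on the same strand in GENCODE M21. Creb1 had 187 and Mrap2 6.92. Of neighbours in this order, only Prkar1a and Prkaca, and Creb1 and Mrap2, had ranges that did not overlap over the 7 libraries.

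**Figure D1:**
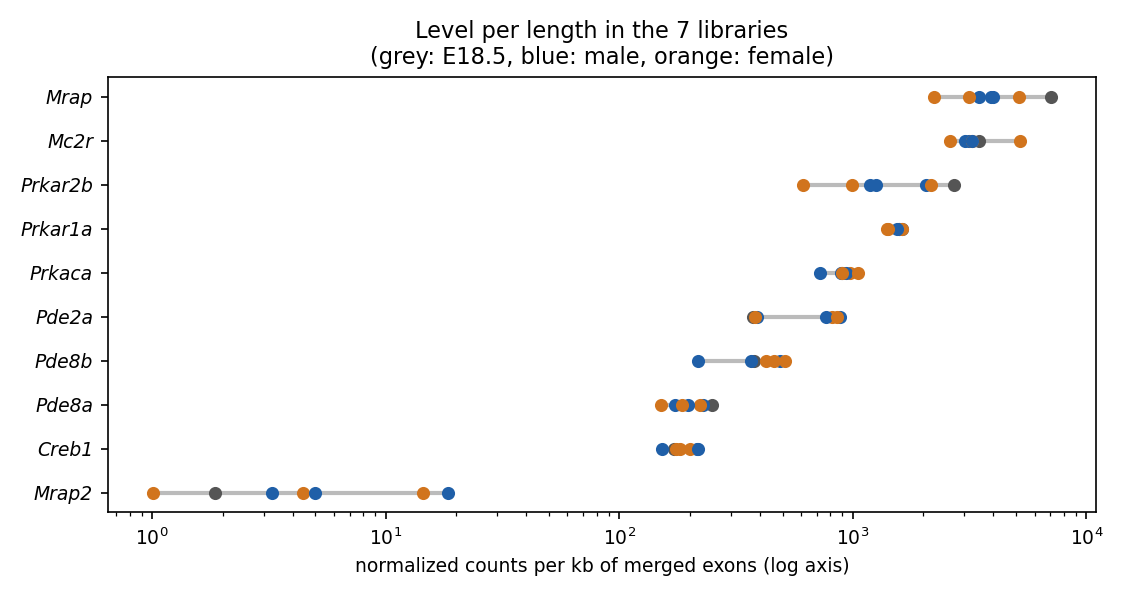
Levels of the 10 genes on a log axis, in normalized counts per kb of merged exons, with 1 point per library (grey for E18.5, blue for male, orange for female) and a line over the range of each gene. Mrap and Mc2r lie highest, with means of 4140 and 3412, and Mrap2 lies far below the other genes, with a mean of 6.92. The level of Pde2a is uncertain, because another gene shares 64.3% of its exon bases.

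Postnatal ages were compared with limma on log2(normalized count + 1) over the 6 postnatal libraries, with sex as a block. A gene passed at a Benjamini-Hochberg adjusted p under 0.05 over all 16720 genes tested. From P1 to 2 weeks, 2 of the 10 genes passed, Pde2a and Prkar2b, both higher at 2 weeks, against 16.4% of all genes and 5.89% that passed as higher. From 2 weeks to 12 weeks, 1 of the 10 passed, Mrap2, which was lower at 12 weeks, against 15.3% of all genes and 9.89% that passed as lower. From P1 to 12 weeks, 1 of the 10 passed, Pde2a, which was higher, against 41.2% of all genes and 17.6% that passed as higher. The median log2 difference of the 10 genes was 0.40, -0.19 and 0.20 in these 3 comparisons, beside 0.0026, -0.03 and -0.03 over all genes.

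**Figure D2:**
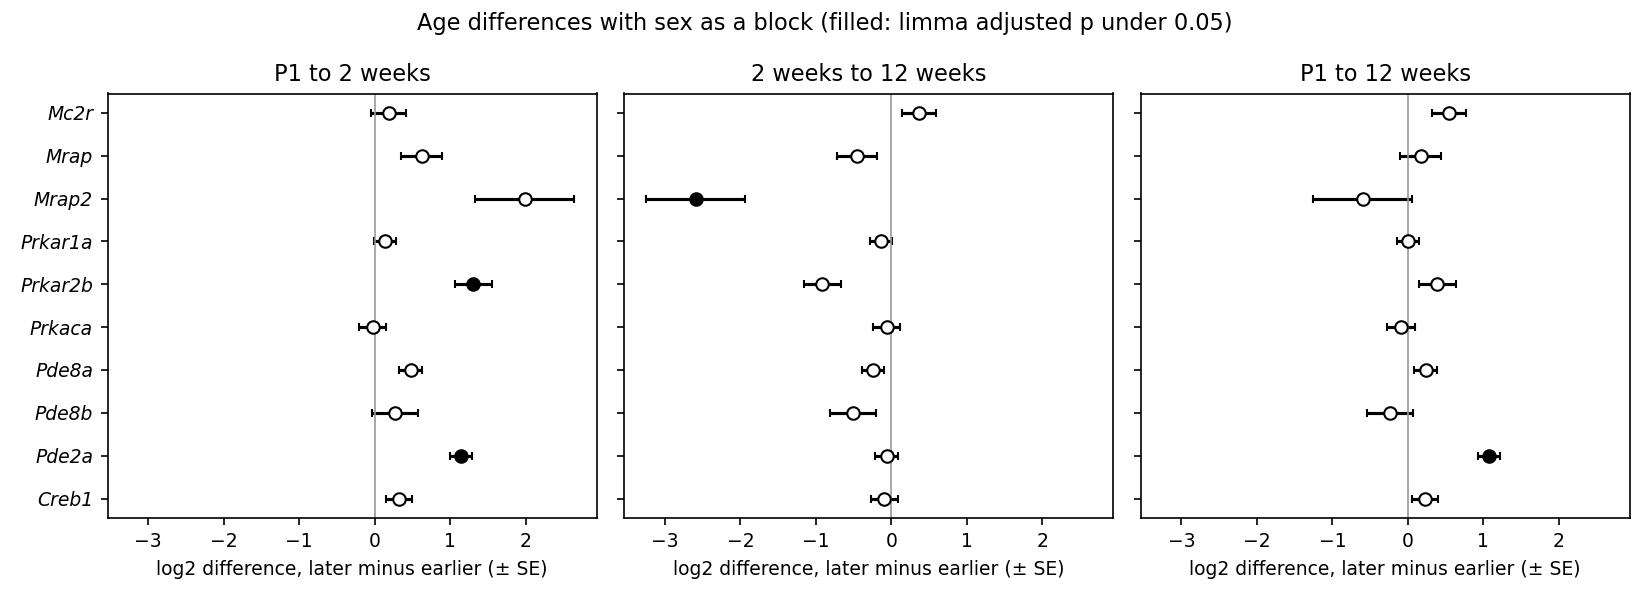
Log2 difference of each gene between postnatal ages, later minus earlier, with its standard error from limma (6 libraries, sex as a block). Filled points passed the adjusted threshold: Pde2a and Prkar2b from P1 to 2 weeks, Mrap2 from 2 to 12 weeks, and Pde2a from P1 to 12 weeks.

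Mc2r, the receptor gene, kept a high level at every age and was highest in the 12-week female pool. It had 5639 normalized counts at E18.5, 4931 and 4247 in the male and female P1 libraries, 5112 and 5271 at 2 weeks, and 5282 and 8474 at 12 weeks. The libraries other than the 12-week female one lay between 4247 and 5639, and that library lay above them all. The male to female ratio at 12 weeks was 0.623 (exact 95% interval of counting error 0.599 to 0.648), against 1.16 at P1 and 0.970 at 2 weeks. The 12-week female library also had the highest summed cortex markers, at 1110214 normalized counts, although Star among them was highest in the 12-week male library. The part of the cortex markers in the level of Mc2r was not tested. From P1 to 12 weeks the log2 difference was 0.55 ± 0.23 (SE), with a limma adjusted p of 0.0970, and from 2 to 12 weeks it was 0.37 ± 0.23, with an adjusted p of 0.315. Without the P1 female library the first was 0.26 (adjusted p = 0.523), and without the P1 male library 0.84 (adjusted p = 0.102). Without the 12-week male library both passed, at 0.93 (limma adjusted p = 0.00407) and 0.75 (adjusted p = 0.0298). Without the 12-week female library they were 0.16 (adjusted p = 0.600) and -0.02 (adjusted p = 0.970).

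Mrap, which encodes the accessory protein that the receptor needs to reach the surface, was highest before birth. It had 11176 normalized counts at E18.5, 6150 and 3537 in the male and female P1 libraries, 6312 and 8148 at 2 weeks, and 5511 and 4985 at 12 weeks. The E18.5 library lay above all 6 postnatal ones, and the P1 female library lay below all others. No postnatal age comparison of Mrap passed: the log2 differences were 0.62 ± 0.27 from P1 to 2 weeks (limma adjusted p = 0.165), -0.45 ± 0.27 from 2 to 12 weeks (adjusted p = 0.293) and 0.17 ± 0.27 from P1 to 12 weeks (adjusted p = 0.641). Without the P1 female library the first was 0.17 (adjusted p = 0.712) and the last turned to -0.29 (adjusted p = 0.431). Without the P1 male library they were 1.08 (adjusted p = 0.123) and 0.62 (adjusted p = 0.138).

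Mrap2 encodes the homologue of Mrap, known mainly as a partner of the melanocortin receptor that controls feeding in the brain. Its reads were few: 5 at E18.5, 9 and 9 at P1, 47 and 37 at 2 weeks, and 8 and 2 at 12 weeks. In normalized counts that was 4.20 at E18.5, 7.36 and 9.93 in the male and female P1 libraries, 41.8 and 32.6 at 2 weeks, and 11.2 and 2.26 at 12 weeks. Both 2-week libraries lay above all others. The fall from 2 to 12 weeks passed, with a log2 difference of -2.59 ± 0.66 (limma adjusted p = 0.0447), and it was called in 4 of 13 alternative settings (adjusted p from 0.00362 to 0.262). Of the 6 fits that left out a library, it passed in that without the 12-week male (-3.55), and without the 12-week female library it was -1.63 (adjusted p = 0.134). The difference from P1 to 2 weeks was 1.99 ± 0.66 with a limma adjusted p of 0.0897, 2.74 (adjusted p = 0.140) without the P1 female library and 1.23 (adjusted p = 0.362) without the P1 male library. It passed without the 12-week male (adjusted p = 0.0178) or the 12-week female library (adjusted p = 0.0106).

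Prkar1a and Prkaca, the regulatory and catalytic subunits of protein kinase A most widely expressed in tissues, differed little over the libraries. Prkar1a had 6787 normalized counts at E18.5, 6783 and 6039 in the male and female P1 libraries, 6986 and 7044 at 2 weeks, and 6668 and 6138 at 12 weeks. Its highest library was 1.17 times its lowest, the smallest span of the 10 genes. Prkaca had 2244 normalized counts at E18.5, 2222 and 2428 at P1, 2332 and 2227 at 2 weeks, and 1808 and 2628 at 12 weeks, male before female. The 12-week male library was the lowest for Prkaca and the 12-week female library the highest, with a ratio of 0.688 (95% counting interval 0.642 to 0.737). Neither gene passed in an age comparison, with limma adjusted p from 0.576 to 0.997 over the 6 tests. Without the P1 female library the differences from P1 to 2 and to 12 weeks were 0.075 and -0.058 for Prkar1a and -0.081 and -0.15 for Prkaca (adjusted p from 0.703 to 0.870).

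Prkar2b, the type II regulatory subunit that is abundant in fat, brain and endocrine cells, varied most among the kinase genes. It had 9919 normalized counts at E18.5, 4329 and 2233 in the male and female P1 libraries, 7481 and 7878 at 2 weeks, and 4571 and 3623 at 12 weeks. Both 2-week libraries lay above the P1 and 12-week libraries, and the E18.5 library above all of them. The rise from P1 to 2 weeks was 1.30 ± 0.24 on the log2 scale (limma adjusted p = 0.0173). It was called in 8 of 14 alternatives. Without the P1 female library it was 0.89 (adjusted p = 0.126), and without the P1 male, 2-week male or 2-week female library it was 1.72, 1.66 and 0.94 (adjusted p = 0.0818, 0.0637 and 0.148). The difference from 2 to 12 weeks was -0.92 ± 0.24 with a limma adjusted p of 0.0518, and it was called in 4 of 14 alternatives, among them DESeq2 (adjusted p = 0.00626) and the fits without the 12-week male (0.0409) or the 12-week female library (0.0253). The summed level of 9 adipocyte markers ran from 2916 to 3082 normalized counts at E18.5 and P1, and was 44725 and 49503 at 2 weeks and 33930 and 28184 at 12 weeks. The E18.5 library, where Prkar2b was highest, held 3005 normalized counts of these markers, with 2 of the 9 at 0, and their part in the postnatal differences was not tested.

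**Figure D3:**
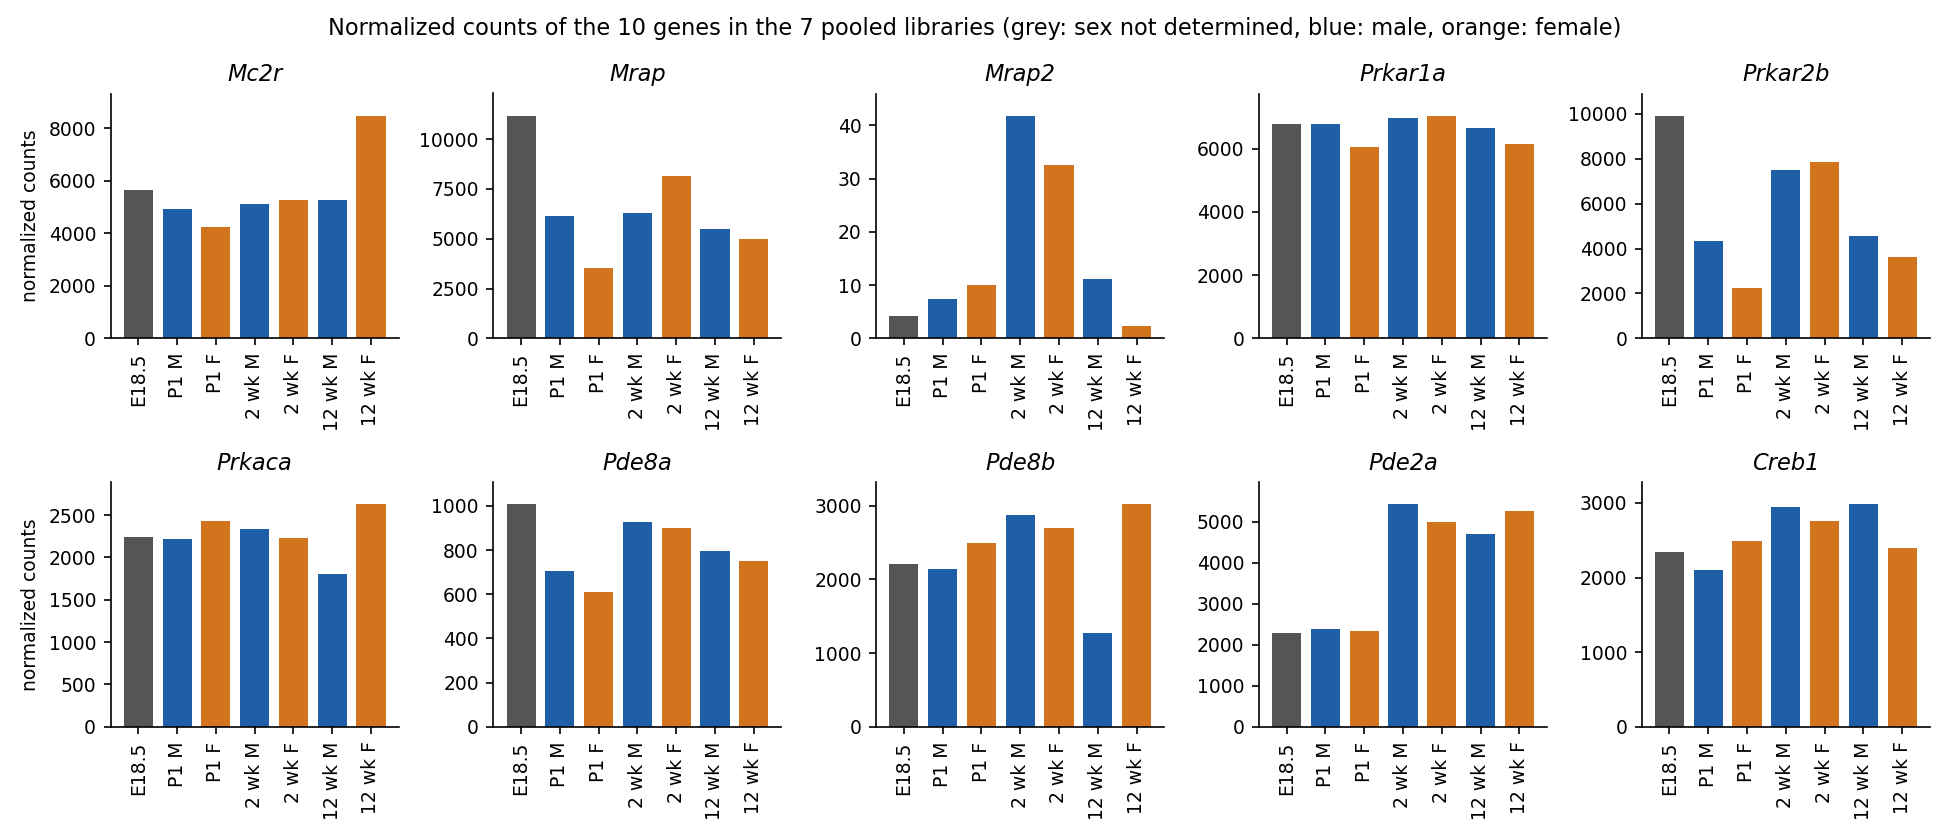
Normalized counts of the 10 genes in each of the 7 pooled libraries, with 1 bar per library and axes from 0 (grey for E18.5, blue for male, orange for female). Mrap and Prkar2b are highest at E18.5, Mrap2 at 2 weeks, Pde2a from 2 weeks on, and Mc2r in the 12-week female library at 8474.

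Like Prkar2b, the cAMP-specific phosphodiesterase gene Pde8a was highest at E18.5 and higher at 2 weeks than at P1 or 12 weeks. The span of Pde8a was smaller. It had 1007 normalized counts at E18.5, 704 and 612 in the male and female P1 libraries, 927 and 900 at 2 weeks, and 794 and 749 at 12 weeks. Both P1 libraries were the lowest and the E18.5 library the highest. The difference from P1 to 2 weeks was 0.48 ± 0.15 on the log2 scale and did not pass (limma adjusted p = 0.0786), nor did it in any of 14 alternatives. It was 0.41 (adjusted p = 0.241) without the P1 female library.

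Pde8b, the high-affinity cAMP phosphodiesterase best known from steroid-producing adrenal cells, had both its lowest and its highest level in the 12-week pools. It had 2215 normalized counts at E18.5, 2145 and 2491 in the male and female P1 libraries, 2876 and 2699 at 2 weeks, and 1275 and 3020 at 12 weeks. The 12-week male library lay below the other 6 and the 12-week female library above them. Summed cortex markers were also lower in that male library, at 834315 normalized counts against 1110214 in the female one. Star among them was higher in the male library, at 372882 against 357347. The part of these markers was not tested. Between 2 and 12 weeks the ratio was 0.443 in males (95% counting interval 0.412 to 0.477) and 1.12 in females (1.06 to 1.18). With both sexes in 1 fit no age comparison of Pde8b passed, with limma adjusted p of 0.585, 0.300 and 0.564. Those from P1 were 0.089 and -0.42 (adjusted p = 0.925 and 0.557) without the P1 female library. Without the 12-week female library the differences to 12 weeks were -1.10 from 2 weeks (adjusted p = 0.00241) and -0.83 from P1 (adjusted p = 0.00775), and without the 12-week male library they were 0.09 and 0.35 (adjusted p = 0.848 and 0.225).

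Pde2a, which encodes a phosphodiesterase that is stimulated by cGMP and is known from the aldosterone-producing outer zone of the cortex, rose after P1 and kept its level to 12 weeks. It had 2300 normalized counts at E18.5, 2389 and 2348 in the male and female P1 libraries, 5430 and 5001 at 2 weeks, and 4716 and 5277 at 12 weeks. The 3 libraries up to P1 lay at 2389 or below and the 4 later libraries at 4716 or above, with no overlap. The log2 difference was 1.14 ± 0.15 from P1 to 2 weeks (limma adjusted p = 0.00599) and 1.07 ± 0.15 from P1 to 12 weeks (adjusted p = 0.00221), while from 2 to 12 weeks it was -0.06 ± 0.15 (adjusted p = 0.805). The difference to 12 weeks was called in all 14 alternatives, with adjusted p of at most 0.0378. That to 2 weeks was called in 9 of 14, and without the P1 female library it was 1.11 with an adjusted p of 0.0817. Without the P1 male, 2-week male or 2-week female library it was 1.16, 1.04 and 1.23 (adjusted p = 0.0909, 0.101 and 0.0506). The summed level of 7 markers of the zona glomerulosa, the outer zone of the cortex, was 26465 at E18.5, 24142 and 29972 at P1, 40830 and 38690 at 2 weeks, and 34677 and 46621 at 12 weeks. The largest in every library was Kcnk3, with 14321 and 13208 at P1 and 23746 and 30712 at 12 weeks. All of these markers had a positive log2 difference from P1 to 2 weeks, and from 2 to 12 weeks Kcnk3 alone did. Adipocyte markers summed to 2916 and 3082 at P1, 44725 and 49503 at 2 weeks, and 33930 and 28184 at 12 weeks. The part of either set in the rise of Pde2a was not tested. In GENCODE M21 the gene Gm45837 shares 64.3% of the exon bases of Pde2a on the same strand, so the counting of these reads is uncertain.

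Creb1, which encodes a transcription factor that protein kinase A phosphorylates, spanned 1.42 times from its lowest to its highest library. It had 2348 normalized counts at E18.5, 2096 and 2489 in the male and female P1 libraries, 2948 and 2757 at 2 weeks, and 2982 and 2400 at 12 weeks. The sexes were in opposite order at P1 and at 12 weeks, and no age comparison passed (limma adjusted p from 0.256 to 0.758). The differences to 2 and 12 weeks were 0.55 (adjusted p = 0.171) and 0.45 (adjusted p = 0.134) without the P1 female library.

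The E18.5 library was set against each P1 library by ratio, with no test. Mrap and Prkar2b were lower in both P1 pools. In the male pool 1 of the 10 genes was at least 2-fold from the E18.5 level, Prkar2b at a ratio of 0.436 (95% counting interval 0.422 to 0.451), against 8.4% of all genes. In the female pool 3 of the 10 were, against 13.2% of all genes: Prkar2b at 0.225 (0.215 to 0.236), Mrap at 0.316 (0.304 to 0.329), and Mrap2, on 5 and 9 reads, at 2.36 with an interval that includes 1 (0.712 to 8.98). Prkar2b was the member at least 2-fold lower in both pools, as were 2.24% of all genes, and the pools share the E18.5 library. The ratio of Mrap in the male pool was 0.550 (0.535 to 0.566). Pde8a was at 0.699 and 0.607 of its E18.5 level in the male and female pools, and Mc2r at 0.874 and 0.753. Pde2a (1.04 and 1.02) and Prkaca (0.990 and 1.08) stood close to their E18.5 level in both. Summed cortex markers were also lower in both P1 pools, at 372205 and 243499 normalized counts against 532277, and their part in these ratios was not tested.

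The sex difference common to the 3 postnatal ages was tested in the same limma fit, and none of the 10 genes passed (adjusted p = 0.999 for each), against 0.00598% of all genes, which is 1 gene. The 4 Y-linked genes did not pass either, with log2 differences from 6.97 to 8.06 (limma adjusted p = 0.999 for each). A gene that did not pass here may therefore still differ between the sexes. At an unadjusted p under 0.05, 521 of the 16720 genes and none of the 10 differed, and DESeq2 called 9 genes and edgeR 0 over the table. At P1, 0 of the 10 were 2-fold apart between the libraries, against 6.78% of all genes. There Prkar2b had a male to female ratio of 1.94 (95% counting interval 1.84 to 2.04) and Mrap of 1.74 (1.67 to 1.81), while the other 8 genes ranged from 0.741 to 1.16. With library totals made equal, the ratio of Prkar2b at P1 was 2.05, past the 2-fold limit. At 2 weeks, 0 of the 10 were 2-fold apart, against 4.24% of all genes, and Mrap had the lowest ratio, at 0.775 (0.751 to 0.799).

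At 12 weeks, 2 of the 10 genes were at least 2-fold apart between the male and female libraries, against 8.83% of all genes. Pde8b had a male to female ratio of 0.422 (95% counting interval 0.391 to 0.455). Mrap2 had a ratio of 4.94 on 8 and 2 reads, and its interval, 0.986 to 47.8, includes 1. The others ran from 0.623 for Mc2r and 0.688 for Prkaca to 1.24 for Creb1 and 1.26 for Prkar2b. Summed cortex markers were 834315 normalized counts in the 12-week male library and 1110214 in the female one. The markers did not all go the same way. Star was higher in the male library (372882 against 357347) and Cyp11a1 was close (62866 against 64654). Cyp11b1, Cyp21a1, Hsd3b1 and Nr5a1 were lower in the male library. The part of these markers in the sex differences at this age was not tested. A comparison added after the files were seen set the sex difference at 12 weeks against that at P1 and 2 weeks, with 1 residual degree of freedom. In it 1 of the 10 passed, Pde8b at -1.18 ± 0.29 on the log2 scale (limma adjusted p = 0.0426), against 1.58% of all genes and 0.718% that passed in that direction. The call held in 1 of 8 alternatives: edgeR gave an adjusted p of 0.352, DESeq2 0.153 and the table without a filter on low genes 0.614. Of 79 other pathway genes, 3 passed in it, or 3.80%, all with the male library lower: the phosphodiesterase gene Pde7a at -1.69 ± 0.29 (adjusted p = 0.00268), Rapgef4 at -1.43 ± 0.29 (adjusted p = 0.0115) and Nr4a1 at -2.34 ± 0.49 (adjusted p = 0.0158). They were called in 5, 5 and 2 of 8 alternatives, and edgeR called none of them (adjusted p = 0.158, 0.271 and 0.496). In GENCODE M21 an antisense gene, Gm48420, overlaps 7.60% of the exon bases of Pde8b, and whether counting used strand is not given in the sources used here.

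**Figure D4:**
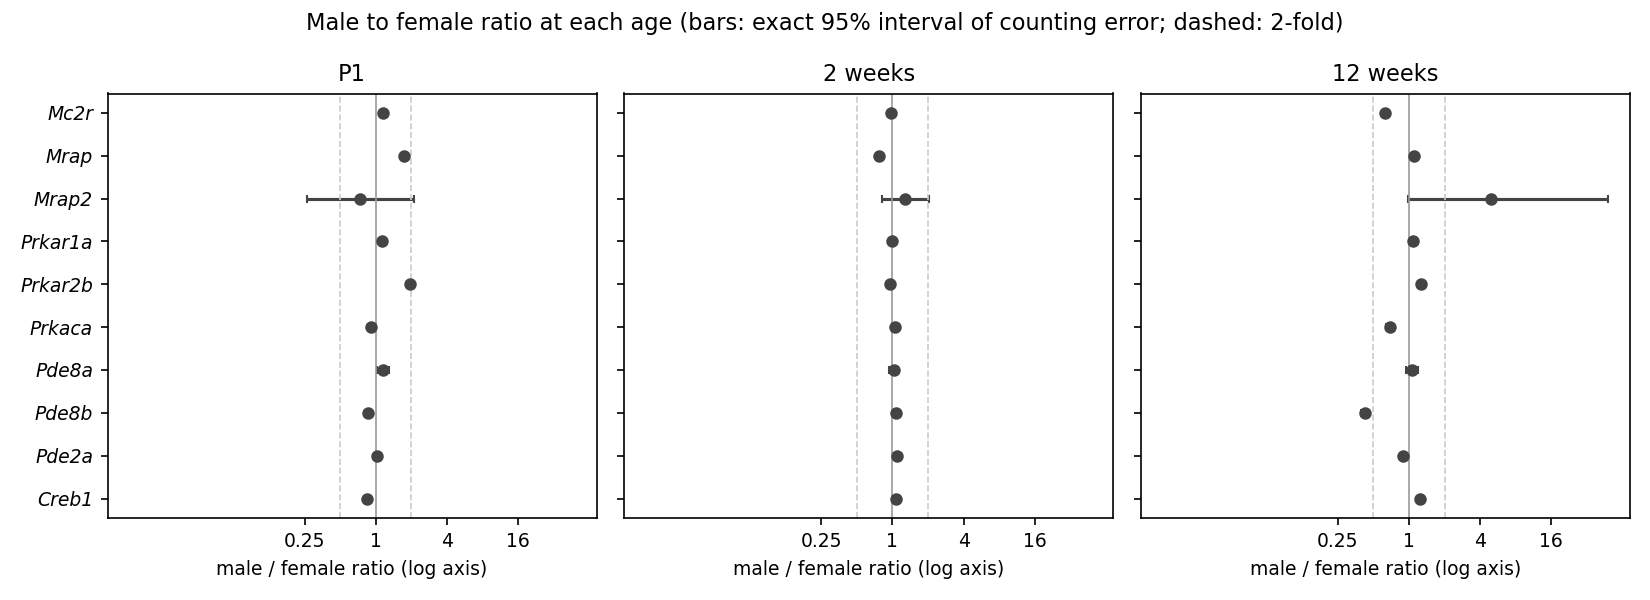
Male to female ratio of normalized counts for each gene at P1, 2 weeks and 12 weeks on a log axis, with the exact 95% interval of counting error and dashed lines at 2-fold. At 12 weeks Pde8b lies past the lower line at 0.422, and Mrap2, on 8 and 2 reads, has an interval that includes 1.

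Regulatory sequence was drawn from RefSeq promoter windows of GRCm38.p6, which matched 8 of the 10 genes with 23 windows. Shown are the most upstream windows of the 3 genes that passed in an age comparison and 1 of the 6 windows of Prkar1a. The Prkar1a window was picked because it holds a full cAMP response element, so the windows shown do not compare genes that moved with genes that did not. Each stretch ends at or before the base upstream of the start site, with bases that lie in a GENCODE M21 exon left out. Capitals mark the motifs searched on both strands: the cAMP response element TGACGTCA, its half-site TGACG, the nuclear receptor half-site AGGTCA and the AP-1 site TGANTCA.
Pde2a, chr7:101421441-101421690, plus strand: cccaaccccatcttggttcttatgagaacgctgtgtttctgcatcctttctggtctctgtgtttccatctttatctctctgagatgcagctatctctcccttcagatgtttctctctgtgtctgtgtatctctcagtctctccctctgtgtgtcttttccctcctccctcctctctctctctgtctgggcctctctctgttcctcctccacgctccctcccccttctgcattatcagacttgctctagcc
Prkar2b, chr12:32061297-32061527, minus strand: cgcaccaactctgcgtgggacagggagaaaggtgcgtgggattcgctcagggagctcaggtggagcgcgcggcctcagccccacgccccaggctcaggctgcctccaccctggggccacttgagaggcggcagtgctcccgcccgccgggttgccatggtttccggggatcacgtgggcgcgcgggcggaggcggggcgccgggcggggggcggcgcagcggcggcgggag
Mrap2, chr9:87144056-87144305, plus strand: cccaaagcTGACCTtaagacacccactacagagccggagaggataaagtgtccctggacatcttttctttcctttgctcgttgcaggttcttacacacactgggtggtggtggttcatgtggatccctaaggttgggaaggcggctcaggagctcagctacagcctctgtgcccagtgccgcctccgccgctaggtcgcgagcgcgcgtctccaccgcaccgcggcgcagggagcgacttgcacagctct
Prkar1a, chr11:109650699-109650920, plus strand: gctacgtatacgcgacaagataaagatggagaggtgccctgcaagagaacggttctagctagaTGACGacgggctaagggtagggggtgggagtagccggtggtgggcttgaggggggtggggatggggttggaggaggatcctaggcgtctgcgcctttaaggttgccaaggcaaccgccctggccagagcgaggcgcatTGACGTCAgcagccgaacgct

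Over 250 bases before the start, TGACGTCA was in 1.55% of the 32851 windows of all genes, and among the 23 windows of these genes it was in that 1 window of Prkar1a, 49 bases before the start. The half-site TGACG, which is also part of the full element, was in 17.8% of all windows and in windows of Pde8a, Prkaca and Prkar1a. AGGTCA was in 14% of all windows and in those of Mrap2 and Pde8a. TGANTCA was in 6.75% of all windows and in no window of these genes. Pde2a and Prkar2b, which passed from P1 to 2 weeks, held none of the 4 motifs in these windows. Creb1 and Pde8b, which passed in no age comparison of the main fit, held none either. The GC content of the stretches shown was 50.8% for Pde2a and 75.8% for Prkar2b. The motifs and the window length were chosen after the values were seen, and a match here describes letters only.

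Other genes of the pathway were counted over 9 lists of 89 genes, of which 87 were in the table and 79 were tested. From P1 to 2 weeks 11 were higher and 5 lower, from 2 to 12 weeks 6 and 12, and from P1 to 12 weeks 19 and 22. The last pair is 51.9% of the genes tested, beside 41.2% of all genes. The first 2 are 20.3% and 22.8% of the genes tested, beside 16.4% and 15.3% of all genes. No pathway gene passed for the sex difference common to the 3 ages, a test that the Y-linked genes did not pass either. Without the P1 female library, a fit with fewer degrees of freedom, all 41 of the calls from P1 to 12 weeks kept their direction and 13 of them passed, while 6 genes were higher and 8 lower, which is 17.7% beside 19.2% of all genes. The 16 calls from P1 to 2 weeks also kept their direction and none passed, beside 0.167% of all genes. Of the genes named next, Adcy9, Adcy2, Adcy1, Pkia, Akap12, Akap6, Pde10a and Crem passed without that library and the others did not.

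Adenylyl cyclase genes differed in both directions between P1 and 12 weeks. Of 14 genes for G proteins and cyclases, 3 were higher and 4 lower at 12 weeks. Over all 16720 genes tested, 2944 (17.6%) passed as higher, 3937 as lower and 41.2% in either direction. The counts of this list and of those that follow are to be read beside these shares, and no list was tested as a set. Adcy9 rose by 1.54 ± 0.16 on the log2 scale (limma adjusted p = 0.000808), from 1339 and 1757 normalized counts at P1 to 4161 and 4811 at 12 weeks. Adcy3 rose by 0.67 ± 0.15, while Adcy2 fell by 1.98 ± 0.24 and Adcy1 fell by 1.23 ± 0.18. Of 6 receptor kinases and arrestins, which desensitise receptors, 1 was higher, Grk5 at 1.11 ± 0.23, with 2413 normalized counts in the 12-week male and 1231 in the 12-week female library.

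Among 6 other protein kinase A subunits and inhibitors, 1 was higher and 2 lower at 12 weeks. The regulatory subunit Prkar1b rose by 0.60 ± 0.17, the type II regulatory subunit Prkar2a fell from 1227 and 1708 normalized counts at P1 to 671 and 778 at 12 weeks (adjusted p = 0.00574), and Pkia, which encodes an inhibitor of the kinase, fell by 1.48 ± 0.20. Of 11 A-kinase anchoring proteins, which tether the kinase inside the cell, 1 was higher and 3 lower. Akap12 fell by 2.71 ± 0.17 (limma adjusted p = 0.000172), from 8011 and 9854 normalized counts at P1 to 1289 and 1421 at 12 weeks. Akap6 fell by 1.97 ± 0.22 and Akap10 rose by 0.52 ± 0.15.

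Of 13 other cAMP phosphodiesterases, 4 were higher and 6 lower at 12 weeks. Pde10a rose by 1.75 ± 0.29 and Pde3b by 0.99 ± 0.30, while Pde4b fell by 1.65 ± 0.26 and Pde4d by 0.72 ± 0.17. Among 11 genes of the CREB family and its coactivators, 1 was higher and 4 lower. The higher one was Crem, the cAMP-responsive relative of Creb1, at 2.25 ± 0.17 (limma adjusted p = 0.000276). Its 418 and 337 normalized counts at P1 became 956 and 943 at 2 weeks and 1706 and 1871 at 12 weeks. The coactivator gene Crebbp fell by 0.60 ± 0.14 and Creb3l1 fell by 2.48 ± 0.37.

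Of 12 steroidogenic genes known to respond to cAMP, 7 were higher at 12 weeks than at P1 and none was lower, beside 17.6% of all genes that passed as higher. Of these 12 genes, 6 are also the adrenal cortex markers, whose sum was 372205 and 243499 normalized counts at P1 and 834315 and 1110214 at 12 weeks. Of the cortex markers, Star and Hsd3b1 passed as higher, and Cyp11a1, Cyp11b1, Cyp21a1 and Nr5a1 did not pass. Adipocyte markers went from 2916 and 3082 to 33930 and 28184, and the part of cortex or fat content in the higher calls was not tested. Star, which encodes the protein that moves cholesterol into mitochondria, rose by 2.43 ± 0.37 (limma adjusted p = 0.00326), and by 1.92 (adjusted p = 0.152) without the P1 female library. Nr4a1, an early-response nuclear receptor gene, rose by 2.45 ± 0.68 (adjusted p = 0.0280) but had 9913 and 6960 normalized counts at 2 weeks and 1174 and 8493 in the 12-week male and female libraries. Of 5 other cAMP effectors, 1 was higher and 3 lower, and the higher one, the exchange factor gene Rapgef4, rose by 1.31 ± 0.35. Rapgef4 had 3933 normalized counts in the 12-week male library and 9191 in the female one. Skeletal muscle and liver markers, at 76444 to 139272 and 282418 to 368899 normalized counts in the P1 libraries and at most 47.5 and 464 at 12 weeks, fell over the same comparison, and their part in the lower calls was not tested.

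Profiles over the 7 libraries were compared for the 3 genes whose highest library was at least 3 times their lowest, by the root mean square difference of centred log2(normalized count + 1) among 12246 genes outside the group with a mean of at least 100. Nearest to Mrap were Med30, a subunit of the Mediator complex of transcription, at 0.15 and Slc25a17, a peroxisomal carrier, at 0.17. Med30 had 634 normalized counts at E18.5 and from 249 to 440 after birth. Nearest to Mrap2 were Tmc3 at 0.31, Fos at 0.46 and Junb at 0.48. The profile of Mrap2 rests on 2 to 47 reads per library, and the counting error of these distances was not estimated. Fos and Junb are immediate early genes, and Fos had 491 and 432 normalized counts at 2 weeks and 63.4 to 200 elsewhere. Nearest to Prkar2b were Fam161a at 0.33, Ccdc57 at 0.35 and Psat1, an enzyme of serine synthesis, at 0.35. Mrap and Prkar2b were 0.29 apart, closer than either was to any of the other 8 genes of the group, but Mrap and Pde8a were nearly as close, at 0.30. All 3 genes were lowest in the P1 female library, which held Y-linked transcripts and the lowest cortex sum. The part of that library in these distances was not tested. The 7 libraries are shared by all these profiles, so the distances are descriptions.

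**Figure D5:**
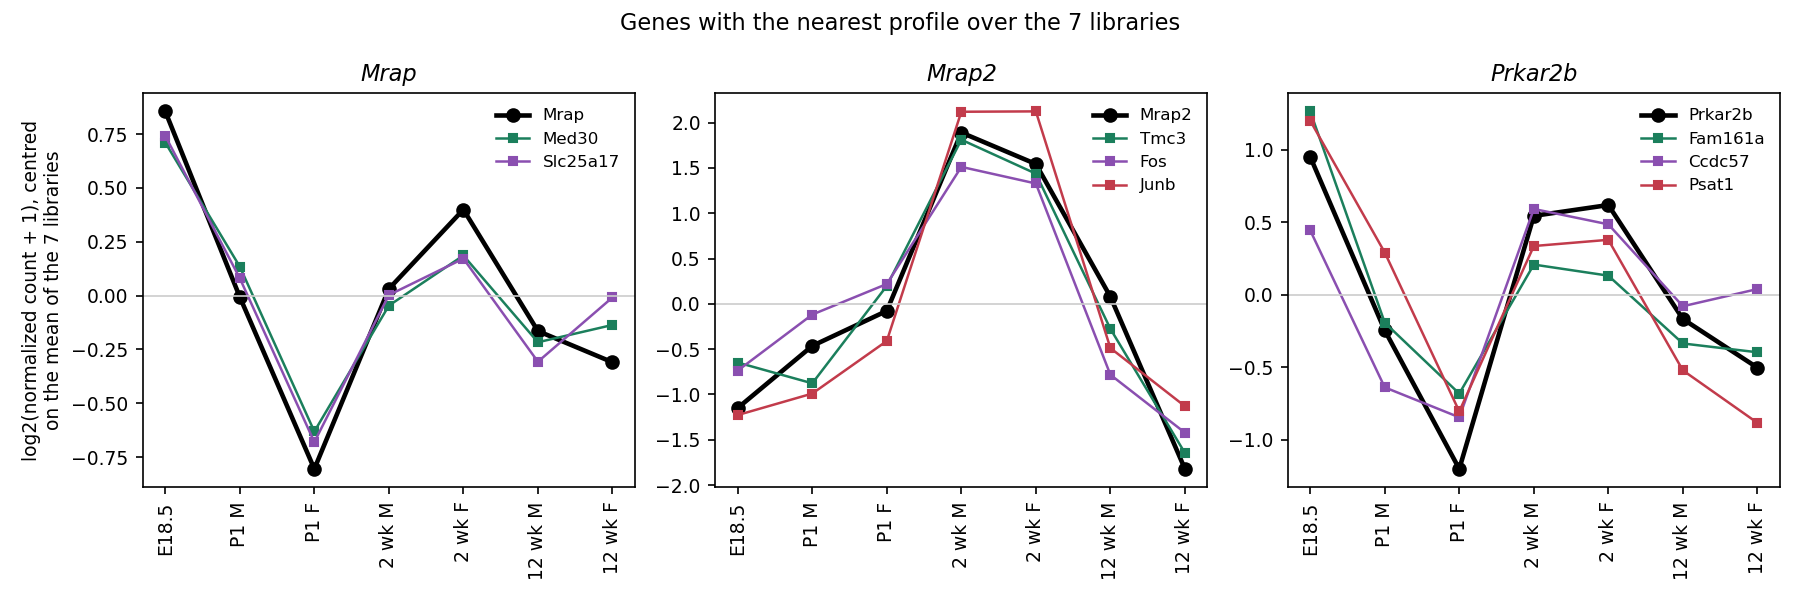
Centred log2(normalized count + 1) of Mrap, Mrap2 and Prkar2b (black) and of genes nearest to each (coloured) over the 7 libraries, with the mean of each gene set to 0. Mrap and Prkar2b share a peak at E18.5 and a low point in the P1 female library, which had the lowest sum of cortex markers. Mrap2, on 2 to 47 reads per library, peaks at 2 weeks, as do Tmc3, Fos and Junb.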

How the data were processed

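The authors deposited 1 table of normalized counts per gene symbol, which holds a signal value for each of 7 libraries. Per the submitters' processing notes, CASAVA 1.8.2, HISAT2 2.1.0, HTSeq 0.9.1, DESeq2 2.11.40.6 and mm10 were used; the annotation and strand setting are not given in the sources used here. Each deposited value was a whole number of reads divided by 1 size factor per library: 100.0% of non-zero values came out whole within 0.01 reads. Genes that averaged 10 normalized counts or more over the libraries were tested (16720, including all 10 genes of the group; 8722 had no reads).

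The test was limma 3.58.1 in R 4.3.3 on log2(normalized count + 1), with age and sex as terms over 6 libraries, a trended prior and 2 residual degrees of freedom. It is two-sided, and fold changes on this scale are understated for low genes. The spread comes from how sex differences vary over ages, since no age and sex has a second library. Recovered reads were tested with edgeR 4.0.16 and DESeq2 1.42.0 as alternatives; the other alternatives were a pseudocount of 0.1, a mean of at least 50, no filter, equal totals, equal upper quartiles, no trend, and leaving out each library. Counts recovered from the deposited values called 2795 (edgeR) and 2994 (DESeq2) genes from P1 to 2 weeks, beside 2737 by limma. Comparisons of 1 library with 1 library give ratios with exact 95% Clopper-Pearson intervals, which cover counting error only, and a 2-fold limit. The fits were tested on simulated data, where the added comparison of sex differences at 12 weeks recovered changes only when the spread was the same for all genes and none when it varied by gene.

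Lengths, positions and overlaps are from GENCODE M21 (GRCm38), matched by symbol. Pathway genes are named from P1 to 12 weeks: the 2 highest and 2 lowest differences that passed in each list, with a mean of at least 100. For genes that span 3-fold or more, the 3 nearest profiles are named, of which 1 is not reported here. The genes of the group and all lists were chosen with earlier results of these data known.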

Additional observations from a re-analysis of the deposited data

Results flagged for a closer look

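Pde8b was singled out because its sex difference at 12 weeks differed from that at P1 and 2 weeks by -1.18 on the log2 scale (limma adjusted p = 0.0426), with the male library lower than the female one at 12 weeks (ratio 0.422) and at P1 (0.861) and higher at 2 weeks (1.07). The comparison was added after the files were seen, and 7 of its 8 alternatives did not pass. Summed cortex markers at 12 weeks were 834315 normalized counts in the male and 1110214 in the female library, although Star among them was higher in the male. The part of these markers was not tested.

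Mrap was singled out because the sexes were in opposite order at neighbouring ages, with a male to female ratio of 1.74 at P1 and 0.775 at 2 weeks. That difference was not tested. The limit for such a reversal, 1.25-fold in each direction, was chosen after the values were seen. The P1 ratio rests on the P1 female library, in which Y-linked transcripts reached 21.0% of the male level and the summed cortex markers were 243499 normalized counts against 372205 in the male library, and the part of either in the ratio was not tested.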

How the results depend on the processing

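No paired analysis was possible because each group has 1 library and the labels carry no replicate numbers. Over 634 alternatives for single genes, 559 gave the same direction and call, 27 lost the call, 10 gained one and 38 changed sign. Most of the 634 belong to results that were not called, and only called results could lose a call. From P1 to 2 weeks the call was kept in 9 of 14 alternatives for Pde2a and 8 of 14 for Prkar2b. It was kept in 4 of 13 for Mrap2 from 2 to 12 weeks and 14 of 14 for Pde2a from P1 to 12 weeks. For Pde8b in the added comparison it was kept in 1 of 8. From P1 to 2 weeks, 2 genes of the group passed, 0 with no filter, 1 with no trend and 0 to 3 when a library was left out. From 2 to 12 weeks, 1 passed, 2 with equal totals, 0 with a pseudocount of 0.1, a mean of at least 50 (which Mrap2 does not reach), no filter or no trend, and 0 to 3 when a library was left out. From P1 to 12 weeks, 1 passed, and 1 to 2 when a library was left out. For sex, 0 passed throughout, in a test whose main setting the Y-linked genes did not pass either. The comparison of sex differences at 12 weeks had 1 gene, and 0 under 7 of 8 alternatives; it could not be fitted without a library, which leaves no residual degree of freedom. Where the cause is not named it was not tested.

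Over all genes, the 2737 calls from P1 to 2 weeks became 0 with no filter, 1672 with no trend and 2 to 4461 without a library; the 2557 from 2 to 12 weeks became 0, 1661 and 421 to 3035; the 6881 from P1 to 12 weeks became 3207 to 6271 without a library, and 4691 with no filter; the 1 for sex became 0 to 51. The 264 calls of the added comparison became 0 with no filter or no trend, 11 with edgeR, 95 with DESeq2, 83 with equal totals, 175 with equal upper quartiles and 367 with a pseudocount of 0.1. Equal totals shifted the median of all genes from 2 to 12 weeks to -0.20.

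The differences that changed sign were these. From P1 to 2 weeks Prkaca was 0.023 with equal totals. Without a library, Mc2r ran from -0.11 to 0.47, Prkaca from -0.23 to 0.17 and Pde8b from -0.14 to 0.68. From 2 to 12 weeks with equal upper quartiles, Prkaca was 0.019 and Pde2a 0.020. Without a library, Mc2r ran from -0.018 to 0.75, Prkaca from -0.32 to 0.19, Pde8b from -1.10 to 0.085, Pde2a from -0.18 to 0.054 and Creb1 from -0.29 to 0.10. From P1 to 12 weeks with equal upper quartiles, Prkar1a was 0.11 and Prkaca 0.019, and with edgeR Prkar1a was 0.0039. Without a library, Mrap ran from -0.29 to 0.62, Mrap2 from -1.56 to 0.36, Prkar1a from -0.058 to 0.056, Prkar2b from -0.024 to 0.80, Prkaca from -0.35 to 0.16 and Pde8b from -0.83 to 0.35. For sex, Pde2a was 0.056 with equal totals, 0.0070 with equal upper quartiles and 0.0013 with edgeR. Without a library, Mc2r ran from -0.36 to 0.086, Mrap from -0.11 to 0.47, Mrap2 from -0.019 to 1.12, Pde2a from -0.069 to 0.072 and Creb1 from -0.075 to 0.21. Of 100 rescaled ratios between single libraries, 78 moved by less than their counting interval and 22 by more. Of those at least 2-fold apart, 0 changed direction, and none could. Rescaling multiplied all ratios of a comparison by 1 factor, while normalized totals ran only from 18725374 to 21839752 and upper quartiles from 493 to 536. Changes of direction among the smaller ratios were not counted. The count at P1 between the sexes went from 0 to 1 with equal totals. Depth limits Mrap2 most, at 2 to 47 reads.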
